A study of Mus musculus with 5 samples.

Results

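The genes described here are 10 genes of the NRF2 antioxidant system in mouse liver, taken by symbol from a table of 33589 rows. They comprise the transcription factor gene Nfe2l2 (which encodes NRF2) and its repressor Keap1. They also comprise the NRF2 targets Nqo1, Gclc, Gclm, Txnrd1 and Srxn1 and the antioxidant enzymes Gpx1, Cat and Sod1. All 10 symbols had a single row, and all 10 passed the filter of a mean of at least 1 FPKM (a level in fragments, scaled by the length of the gene's transcripts and the size of the library). RNA-seq was carried out on total liver RNA in 5 libraries, from male mice of 6 weeks that were fed a high-fat diet over 4 weeks. Libraries are numbered within each genotype, with no statement that each is a separate animal, and "liver" below stands for the liver RNA of a library. In the 2 control libraries the genotype was Hegfl/fl, with floxed Heg1 and no Cre. In the 3 knockout libraries it was Lyve1-Cre;Hegfl/fl, the same floxed gene with a Cre recombinase driven by Lyve1, a gene of lymphatic and liver sinusoidal endothelial cells. Both groups carried the floxed gene and ate the high-fat diet, so neither standard chow nor Cre without floxed Heg1 is represented. The question posed by the design is how the liver transcriptome differs when Heg1, an endothelial membrane receptor, is deleted in Lyve1-expressing cells.

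NRF2 is a transcription factor that is held at low levels by KEAP1, an adaptor that hands it to a CUL3 ubiquitin ligase for degradation. When electrophiles or oxidants modify cysteines of KEAP1, NRF2 accumulates, pairs with small MAF proteins and binds antioxidant response elements at genes of glutathione synthesis, thioredoxin recycling and detoxification. In liver the pathway is known mainly from hepatocytes, where it supports the conjugation of drugs and the removal of peroxides. NRF2 is controlled largely at the protein level, which RNA does not report.

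The promoters are shown first, and whether their motifs bear on the values described below was not tested. RefSeq windows on GRCm38.p6, each from 250 bases before to 50 bases after a transcription start, were found for 9 of the 10 genes (11 windows), with no entry matched for Gclc. The core of the antioxidant response element, TGACNNNGC, was searched on both strands, together with TGANTCAGC, the form bound by NRF2 with small MAF proteins. A run of letters that matches both was counted under each. In 3 NRF2 targets a match lay upstream of the start and outside annotated exons, and these stretches are printed 5′ to 3′ on the gene's strand with the match in capitals.
Srxn1, chr2:152105434-152105515, plus strand, a TGANTCAGC match whose first base lies at -45: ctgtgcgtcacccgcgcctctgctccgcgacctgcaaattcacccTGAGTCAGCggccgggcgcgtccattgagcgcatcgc
Gclm, chr3:122245378-122245476, plus strand, a TGACNNNGC match on the opposite strand at -134: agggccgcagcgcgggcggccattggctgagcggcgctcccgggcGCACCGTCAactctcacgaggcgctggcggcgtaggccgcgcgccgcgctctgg
Txnrd1, chr10:82859069-82859167, plus strand, the second of 3 annotated starts, a TGACNNNGC match on the opposite strand at -92: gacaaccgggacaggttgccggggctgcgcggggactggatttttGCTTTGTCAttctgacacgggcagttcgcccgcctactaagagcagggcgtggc
TGACNNNGC matches were also found in the windows of Sod1 (at -56, opposite strand), Nfe2l2 (at -240) and Srxn1 (at 29, opposite strand), the latter pair inside annotated exons. Neither set of letters was in the windows of Nqo1, Keap1, Gpx1 or Cat. Sequence further than 250 bases before a start was not searched, so elements there would be missed. In all, 5 of 11 windows held TGACNNNGC, a motif found in 12.4% of all 32851 windows, and 1 of 11 held TGANTCAGC, found in 1.19% of all windows. A match describes letters and is not evidence that a factor binds there.

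Across the series, FPKM summed to between 797692 and 820498 per library, and sequencing depth is unknown because FPKM carry no totals. Heg1 had 0.48 and 0.35 FPKM in the controls and 0.45, 0.43 and 0.50 FPKM in the knockouts, so whole-liver RNA did not separate the groups by the targeted gene. The floxed part of Heg1 is not given in the labels. Lyve1, which drives the Cre, had 7.34 and 8.92 FPKM in the controls against 3.90, 7.32 and 10.49 FPKM in the knockouts, with overlap. Hepatocyte markers were abundant in all livers, with sums over 8 genes between 76871 and 91769 FPKM. Hemoglobin and other erythrocyte markers, 7 of 8 of which had a row, summed to 136 and 146 FPKM in the 2 controls against 1330, 244 and 141 FPKM in the knockouts, with Slc4a1 at 0 in all livers other than knockout 1 (0.05 FPKM). In bulk liver, fewer cells of a type and less RNA per cell cannot be told apart. The test was limma on log2(FPKM + 1) of 10820 genes, with p-values adjusted by the Benjamini-Hochberg method over all of them, and a log2 fold change is the knockout mean minus the control mean on that scale.

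None of the 10 genes passed the test over all genes, and neither did any other gene (limma adjusted p below 0.05 in 0 of 10820, or 0.00%). The genes with the smallest unadjusted p were Gpx1, the cytosolic glutathione peroxidase, and Nqo1, the NAD(P)H quinone dehydrogenase, both with lower means in knockouts. Keap1 and Txnrd1 had higher means. At an unadjusted p below 0.05 there was 1 of the 10 genes, Gpx1, against 757 genes or 7.00% of all tested. The groups were free of overlap in 4 of the 10 genes, Keap1 and Txnrd1 with all knockouts above both controls and Nqo1 and Gpx1 with all knockouts below. Among all genes tested 25.3% did not overlap, 18.9% with knockouts higher and 6.38% with knockouts lower, and no test was made of the count of 4. Without control 1 or without control 2, which leaves a single control, 8 and 7 of the 10 did not overlap, beside 52.2% and 52.7% of all genes.

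Of the 10 genes, 7 had a lower and 3 a higher mean in knockouts, with a median log2 fold change of -0.024, whereas 64.2% of all genes tested had a higher mean (median 0.061). Rescaling the libraries without the Mup genes (abundant urinary protein genes) made it 5 lower and 5 higher. Leaving out control 2 made it 4 lower and 6 higher. Fold changes ranged from -0.44 for Nqo1 to 0.21 for Keap1. Over all genes the share with a higher mean was 50.7% (median 0.0026) after median-of-ratios scaling and 49.4% (median -0.0021) after quantile normalization. The 10 genes stayed at 7 lower and 3 higher under both.

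**Figure D1:**
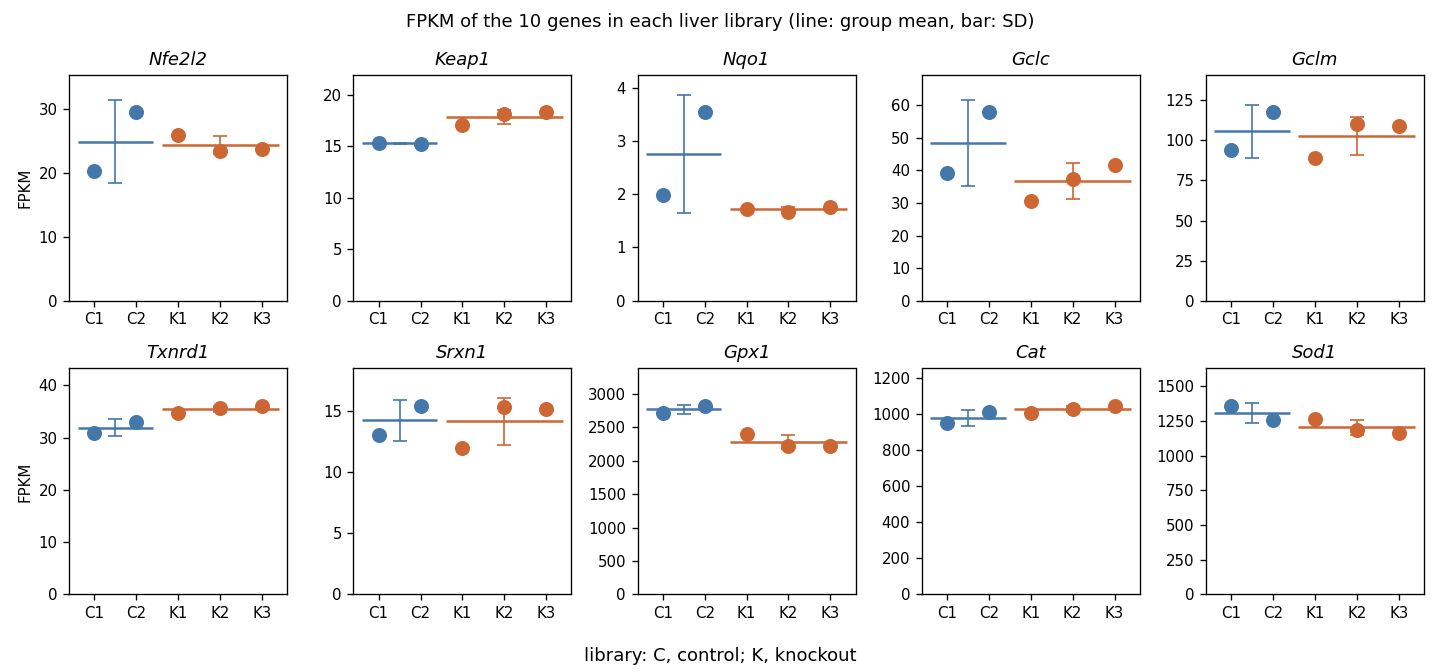
FPKM of each of the 10 genes (vertical axes, starting at 0, scaled per gene) in the 2 control (C) and 3 knockout (K) livers, with lines for group means and bars for SD. Gpx1 and Nqo1 lie lower, and Keap1 and Txnrd1 higher, in every knockout than in either control, and control 2 is the highest liver for Nfe2l2, Nqo1, Gclc, Gclm, Srxn1 and Gpx1.

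The regulators were examined first. Nfe2l2 (ENSMUSG00000015839.6, chromosome 2, 75675513 to 75704641, minus strand, mm10) had 20.36 and 29.47 FPKM in the controls against 25.90, 23.43 and 23.79 FPKM in the knockouts. All knockouts lay between the controls, which held both the lowest and the highest liver. The means were 24.9 ± 6.44 (SD, n = 2) and 24.4 ± 1.33 FPKM (SD, n = 3), a log2 fold change of -0.0091 (SE 0.16 and 95% interval -0.40 to 0.38, limma adjusted p = 0.994). Its sign turned with single libraries, to 0.25 without control 2. Control 1, the liver with the lowest Nfe2l2, also had the lowest summed level of 10 Kupffer cell and macrophage markers, 259 FPKM against 439 FPKM in control 2 and 365, 446 and 423 FPKM in the knockouts. No marker of that list was at 0, and its part in the Nfe2l2 values was not tested.

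Keap1 (ENSMUSG00000003308.15, chromosome 9, 21229730 to 21239361, minus strand) had 15.34 and 15.22 FPKM in the controls against 17.10, 18.15 and 18.29 FPKM in the knockouts. The controls lay close together and all 3 knockouts lay above them. The means were 15.3 ± 0.085 FPKM (SD, n = 2) and 17.8 ± 0.65 FPKM (SD, n = 3), with a log2 fold change of 0.21 (SE 0.097 and 95% interval -0.022 to 0.44, limma adjusted p = 0.718). The exact two-sided permutation p was 0.1, the smallest that 10 splits of 5 livers allow. An antisense gene, Gm16754, shares 510 exonic bases with Keap1, and the sources used here do not say whether counting used strand. Within each library Nfe2l2 exceeded Keap1, with ratios of 1.33 and 1.94 in controls and 1.51, 1.29 and 1.30 in knockouts, which overlapped.

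Among the NRF2 targets, Nqo1 (ENSMUSG00000003849.8, chromosome 8, 107388225 to 107403206, minus strand) is the textbook reporter of NRF2 activity, reducing quinones without radical intermediates. It had 1.98 and 3.54 FPKM in the controls against 1.73, 1.67 and 1.76 FPKM in the knockouts. The knockouts were nearly equal to each other and lay just below control 1, while control 2 stood apart from the other 4 livers. The log2 fold change was -0.44 (SE 0.20 and 95% interval -0.91 to 0.040, limma adjusted p = 0.716), the largest in size of the 10. It rested largely on control 2 and was -0.13 without that liver (limma adjusted p = 0.927). Nqo1 was also the least abundant of the 10 genes, above 14.2% of the genes tested by mean FPKM.

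Gclc and Gclm encode the catalytic and modifier subunits of glutamate-cysteine ligase, which catalyses the rate-limiting step of glutathione synthesis. Gclc (ENSMUSG00000032350.9, chromosome 9, 77754535 to 77794485, plus strand) had 39.20 and 57.81 FPKM in the controls against 30.73, 37.37 and 41.71 FPKM in the knockouts. Knockout 3 lay above control 1, so the groups overlapped. Its log2 fold change was -0.38 (SE 0.20 and 95% interval -0.86 to 0.095, limma adjusted p = 0.725), -0.11 without control 2. Gclm (ENSMUSG00000028124.15, chromosome 3, 122245557 to 122270732, plus strand) had 93.71 and 117.45 FPKM in the controls against 89.23, 109.94 and 108.95 FPKM in the knockouts. Knockouts 2 and 3 lay between the controls and knockout 1 lay below both, so the Gclm groups overlapped. Its log2 fold change of -0.037 (SE 0.15 and 95% interval -0.39 to 0.31, limma adjusted p = 0.960) turned to 0.12 without control 2 and to 0.060 without knockout 1.

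The modifier subunit was the more abundant transcript in every liver. The ratio of Gclm to Gclc FPKM, which is per length, was 2.39 and 2.03 in controls and 2.90, 2.94 and 2.61 in knockouts. All 3 knockout ratios lay above both control ratios, a pattern noticed after the values were seen and given with no test. Exons of Gclm share 296 bases with Gm17494 on the opposite strand and 244 bases with the pseudogene Gm6061 on the same strand.

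Srxn1 (ENSMUSG00000032802.8, chromosome 2, 152105516 to 152111376, plus strand) encodes sulfiredoxin, which restores overoxidised peroxiredoxins, and its upstream stretch printed above holds the TGANTCAGC match. It had 13.05 and 15.39 FPKM in the controls against 11.96, 15.30 and 15.16 FPKM in the knockouts. Control 2, knockout 2 and knockout 3 were alike, with control 1 and knockout 1 below them. The log2 fold change was -0.011 (SE 0.15 and 95% interval -0.36 to 0.34, limma adjusted p = 0.990), and it was 0.10 without control 2 and 0.097 without knockout 1.

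Txnrd1 (ENSMUSG00000020250.10, chromosome 10, 82833951 to 82897712, plus strand) encodes the cytosolic thioredoxin reductase, a selenoprotein. It had 30.83 and 33.01 FPKM in the controls against 34.76, 35.65 and 36.01 FPKM in the knockouts. It was the only NRF2 target of the 5 with all knockouts above both controls, opposite in direction to Nqo1. The log2 fold change was 0.15 (SE 0.093 and 95% interval -0.075 to 0.37, limma adjusted p = 0.765) and stood at 0.082 after median-of-ratios scaling.

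The targets varied between livers of the same genotype, and the median log2 fold change of the 5, -0.037, was -0.20 without control 1, 0.10 without control 2, 0.060 without knockout 1, -0.089 without knockout 2 and -0.082 without knockout 3. Of the 5 targets, 4 (Nqo1, Gclc, Gclm and Srxn1) were highest in control 2, and 3 (Gclc, Gclm and Srxn1) were lowest in knockout 1. Among all genes tested 16.8% were highest in control 2 and 14.8% lowest in knockout 1. Both livers were picked after the values were seen, and these counts have no test. Nfe2l2 was also highest in control 2, at 0.26 above its 5-liver mean of log2(FPKM + 1), where Nqo1 stood at 0.57, Gclc at 0.50, Gclm at 0.18 and Srxn1 at 0.12 above theirs. In knockout 1, Gclc stood at -0.39, Gclm at -0.21 and Srxn1 at -0.22 relative to their means, whereas Nfe2l2 stood at 0.082. Knockout 1 is the liver with the highest erythrocyte marker sum given above, and the part of those cells in its low target values was not tested. For Nqo1, Gclc, Gclm and Srxn1 the gap between the controls, 1.79-fold, 1.47-fold, 1.25-fold and 1.18-fold, exceeded the ratio between group means. The labels name no batch.

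**Figure D2:**
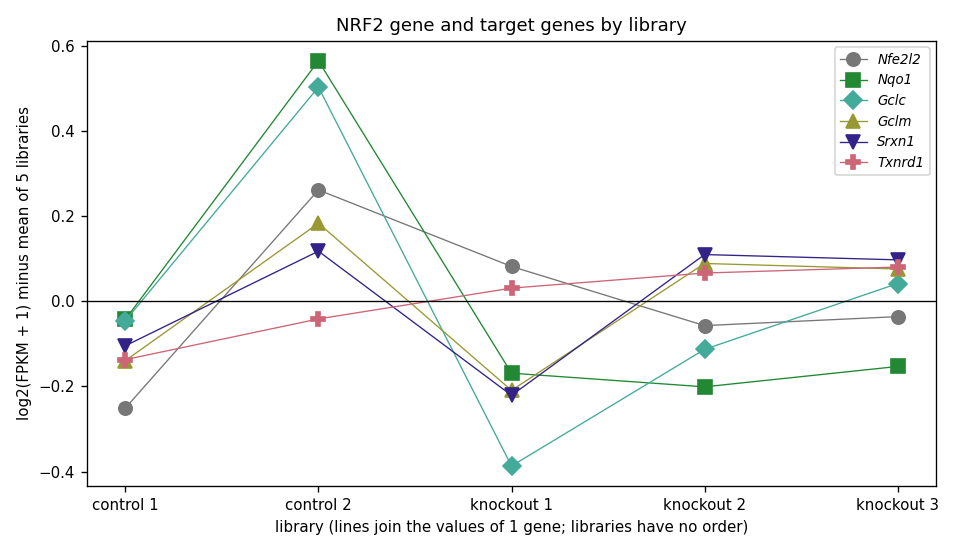
Level of Nfe2l2 and the 5 NRF2 targets in each liver as log2(FPKM + 1) minus the mean of the 5 livers (vertical axis), with lines joining the values of a gene across libraries that have no order. Nqo1 (0.57) and Gclc (0.50) stand highest in control 2, Gclc lowest in knockout 1 (-0.39), and Txnrd1 does not share the pattern.

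The genes closest to Nqo1 in pattern were the sulfotransferase Sult1c2, Zfp932 and Hpgd, the prostaglandin-degrading dehydrogenase. Likeness was the root mean square difference of centred log2(FPKM + 1) over the 5 livers, which was 0.043, 0.050 and 0.073. Hpgd, for example, had 51.04 and 70.09 FPKM in the controls against 46.48, 47.83 and 46.40 FPKM in the knockouts. As for Nqo1, control 2 stood above the other 4 livers in each of the 3 genes, which follows from choosing them by likeness to Nqo1.

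The antioxidant enzymes were among the most abundant transcripts of the liver, above at least 99.1% of the genes tested by mean FPKM. Gpx1 (ENSMUSG00000063856.7, chromosome 9, 108338903 to 108340343, plus strand) is a selenoprotein that reduces hydrogen peroxide with glutathione. It had 2720.10 and 2816.89 FPKM in the controls against 2403.34, 2219.15 and 2214.13 FPKM in the knockouts. The gap between the lowest control and the highest knockout was larger than the range within either group. The means were 2768 ± 68.4 FPKM (SD, n = 2) and 2279 ± 108 FPKM (SD, n = 3), and the knockout mean differed from the control mean by -17.7%. The log2 fold change was -0.28 (SE 0.092 and 95% interval -0.50 to -0.060), with an unadjusted p of 0.0204, the 288th smallest of 10820, and a limma adjusted p of 0.700. Its sign held in all 16 alternatives, with fold changes between -0.35 and -0.24. Of these, the filters and the constant prior variance cannot change a fold change. The replicate block repeats the fold change without knockout 3.

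Cat (ENSMUSG00000027187.10, chromosome 2, 103453849 to 103485160, minus strand) encodes catalase, the peroxisomal enzyme that breaks down hydrogen peroxide. It had 945.84 and 1008.81 FPKM in the controls against 1005.58, 1026.93 and 1041.59 FPKM in the knockouts. Knockout 1 lay just below control 2, so the groups overlapped. The log2 fold change of 0.069 (SE 0.087 and 95% interval -0.14 to 0.28, limma adjusted p = 0.862) was close to the median of all genes, and it was 0.00080 after median-of-ratios scaling. The ratio of Gpx1 to Cat within each liver was 2.88 and 2.79 in controls and 2.39, 2.16 and 2.13 in knockouts, without overlap. This ratio does not depend on scaling between libraries, and it was computed after the values were seen and has no test.

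Sod1 (ENSMUSG00000022982.10, chromosome 16, 90220754 to 90226329, plus strand) encodes the cytosolic copper-zinc superoxide dismutase, which turns superoxide into hydrogen peroxide. It had 1356.71 and 1258.19 FPKM in the controls against 1266.77, 1184.62 and 1162.84 FPKM in the knockouts. Knockout 1 lay between the controls and the other two knockouts lay below both. The log2 fold change was -0.12 (SE 0.094 and 95% interval -0.34 to 0.11, limma adjusted p = 0.792), and -0.064 without control 1. A transcript of the gene Gm8566 matched Sod1 at 97.8% identity over 465 bases, so some reads of the 2 could be exchanged.

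The erythrocyte marker sum was highest in knockout 1, and its part in the values of these enzymes was not tested. In that liver Gpx1 was the highest of the knockouts and below both controls, Sod1 was the highest of the knockouts, and Cat the lowest of the knockouts. Without knockout 1 the log2 fold changes of Gpx1, Sod1 and Cat were -0.32, -0.15 and 0.082.

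**Figure D3:**
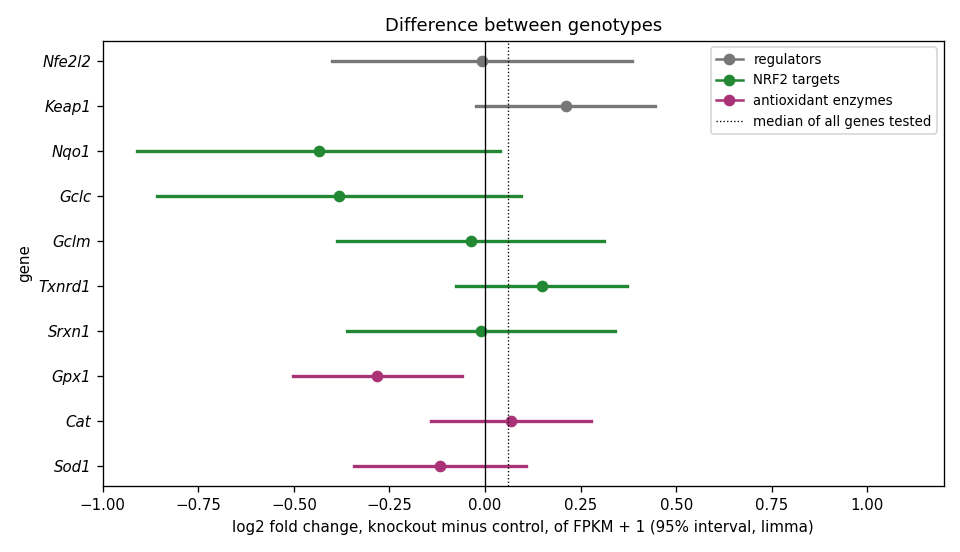
Log2 fold change of FPKM + 1, knockout minus control (horizontal axis), of the 10 genes with 95% intervals from limma, coloured by role. The dotted line is the median of all genes tested (0.061), and the interval of Gpx1 (-0.50 to -0.060) is the only one that does not include 0.

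The rest of the pathway was read from 8 lists of 100 genes in all, of which 96 were tested. None of the 96 passed over all genes. At an unadjusted p below 0.05 there were 9, or 9.38% of them beside 7.00% of all genes. Groups did not overlap for 26 of the 96, 27.1% of them beside 25.3% of all genes, with 11 higher and 15 lower in knockouts, where all genes had 18.9% higher and 6.38% lower. By mean, 41 were higher and 55 lower (median log2 fold change -0.025). This split was 28 and 68 after median-of-ratios scaling and 49 and 47 both after rescaling without Mup genes and without control 2. The count without overlap was 54, 47 and 41 without control 1, control 2 and knockout 1, beside 52.2%, 52.7% and 40.4% of all genes.

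Partners and regulators of NRF2 had higher means in 9 of 11 genes, beside 64.2% of all genes. Their median log2 fold change was 0.14, with 0.074 without control 1 and 0.21 without control 2. After median-of-ratios scaling it was 0.069, with 7 of 11 higher beside 50.7% of all genes. Mafk, a small MAF protein, had 5.02 and 4.96 FPKM in the controls against 5.40, 6.96 and 6.53 FPKM in the knockouts, and its groups did not overlap. Bach1, a repressor that competes with NRF2 for the same elements, had 7.52 and 5.64 FPKM in the controls against 6.80, 9.40 and 10.73 FPKM in the knockouts, and the groups overlapped. Dpp3, a peptidase that binds KEAP1, had 25.48 and 24.68 FPKM in the controls against 26.54, 28.45 and 35.51 FPKM in the knockouts, all 3 knockouts being above both controls. Their limma adjusted p lay between 0.718 and 0.739.

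Glutathione synthesis and recycling genes had lower means in 8 of 11 tested genes (median -0.12, with -0.029 without control 2, -0.076 without knockout 2 and -0.19 after median-of-ratios scaling). Gss, glutathione synthetase, which acts after glutamate-cysteine ligase, had 39.61 and 43.87 FPKM in the controls against 32.74, 34.89 and 37.06 FPKM in the knockouts, with no overlap (log2 fold change -0.25, SE 0.11, limma adjusted p = 0.700). Glrx2, a mitochondrial glutaredoxin, went the other way, with 14.17 and 14.15 FPKM in the controls against 17.98, 17.17 and 16.92 FPKM in the knockouts. Ggct, which cleaves gamma-glutamyl amino acids, had 5.76 and 4.29 FPKM in the controls against 8.56, 5.94 and 7.74 FPKM in the knockouts. In both Glrx2 and Ggct the knockouts lay above both controls. The cystine transporter gene Slc7a11 was listed at 0 in 4 livers and at 0.01 FPKM in knockout 3.

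Thioredoxin and peroxiredoxin genes had lower means in 12 of 16 genes (median -0.082). The median was -0.047 without knockout 3 and -0.15, with 14 of 16 lower, after median-of-ratios scaling. Txnrd2, the mitochondrial thioredoxin reductase, had 22.08 and 19.39 FPKM in the controls against 17.20, 13.82 and 16.71 FPKM in the knockouts, without overlap, and so differed in direction from Txnrd1. The sestrins Sesn3 (2.47 and 3.29 FPKM in controls, 3.81, 4.03 and 4.66 FPKM in the knockouts) and Sesn1 (3.97 and 4.27 FPKM, then 5.30, 4.90 and 6.32 FPKM) had all knockouts above the controls. Sesn2, the other sestrin, went the other way, with 2.18 and 2.41 FPKM in the controls against 2.11, 1.95 and 1.04 FPKM in the knockouts. Sesn2 (log2 fold change -0.31) was chosen after its values were seen. Log2 fold changes were -0.37 for Txnrd2, 0.42 for Sesn3 and 0.34 for Sesn1, each with a limma adjusted p of 0.700.

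The other peroxidases and dismutases divided evenly, 5 of 10 with higher means (median -0.012, with -0.077 after median-of-ratios scaling, 0.018 after rescaling without Mup genes, and values from -0.034 without knockout 3 to 0.046 without knockout 1). Sod2, the mitochondrial manganese superoxide dismutase, had 198.19 and 200.16 FPKM in the controls against 197.98, 164.77 and 177.38 FPKM in the knockouts. Its highest knockout lay just below the controls. Gpx7 and Sod3 had log2 fold changes of 0.21 and 0.29 with overlapping groups. Of the genes that supply NADPH, the cofactor that both recycling systems need, 3 of 7 had higher means (median -0.099), with 1 of 7 without control 1 (median -0.23) and 5 of 7 without control 2 (median 0.050). The median was -0.048 without knockout 1, -0.023 without knockout 2 and -0.17 after median-of-ratios scaling. G6pdx, which opens the pentose phosphate pathway, had 1.53 and 2.18 FPKM in the controls against 2.29, 2.23 and 3.36 FPKM in the knockouts, just without overlap. Pgls and Me1 had log2 fold changes of -0.15 and -0.20 with overlapping groups.

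Conjugation and efflux genes linked to NRF2 had lower means in 11 of 18 genes (median -0.12), with 5 lower and 0 higher without overlap, beside 6.38% lower and 18.9% higher of all genes. Single libraries moved the split in both directions. The means were lower in 14 of 18 without control 1 (median -0.26), 15 without knockout 1 (-0.18), 11 without knockout 2 (-0.19), 8 without control 2 (0.026) and 9 without knockout 3 (0.0015). Gstm1, a glutathione S-transferase, had the smallest unadjusted p of the 96 pathway genes. It had 878.87 and 979.24 FPKM in the controls against 723.16, 717.18 and 595.32 FPKM in the knockouts (log2 fold change -0.46, SE 0.12, limma adjusted p = 0.696). Abcc3, an efflux pump for conjugates, had 51.96 and 53.25 FPKM in the controls against 34.19, 26.20 and 44.42 FPKM in the knockouts. Ephx1, microsomal epoxide hydrolase, had 142.10 and 177.20 FPKM in the controls against 107.17, 137.29 and 111.69 FPKM in the knockouts. All 3 genes are also induced through the receptors CAR or PXR, so they are not specific to NRF2. As with Nqo1 and Gclc, 10 of the 18 genes in this list were highest in control 2, beside 16.8% of all genes. That liver was picked after the target values were seen. In the other lists the share ran from 0 of 11 NRF2 partners to 3 of 6 heme and iron genes.

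Heme and iron genes had lower means in 4 of 6 (median -0.13), in 5 of 6 without control 1 (median -0.21) and in 3 of 6 without control 2 (median 0.013). The median was -0.019 without knockout 1, -0.22 without knockout 2, -0.068 without knockout 3 and -0.19 after median-of-ratios scaling. Blvrb, biliverdin reductase B, had 94.41 and 98.86 FPKM in the controls against 80.67, 70.12 and 80.24 FPKM in the knockouts, without overlap (log2 fold change -0.33, SE 0.10, limma adjusted p = 0.700). Hmox1, heme oxygenase 1, had 13.36 and 23.19 FPKM in the controls against 19.13, 23.02 and 23.40 FPKM in the knockouts, with control 1 alone apart. Its log2 fold change of 0.29 turned to -0.088 without control 1, the liver with the lowest macrophage marker sum. Blvra had a log2 fold change of 0.11, with knockouts above both controls.

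Because Gpx1 and Txnrd1 are selenoproteins, the genes of selenocysteine insertion and other selenoproteins were also read. Their means were higher in 8 of 17 tested genes (median -0.0036, of positive sign after rescaling to a common sum, 0.0049, and without any single library, 0.0034 to 0.072). After median-of-ratios scaling the median was -0.062, with 6 of 17 higher, and after quantile normalization it was -0.032. Dio1, the type 1 deiodinase, had 112.11 and 107.57 FPKM in the controls against 125.25, 171.24 and 118.49 FPKM in the knockouts, all above the controls. Selenom and Selenoh had log2 fold changes of 0.43 and -0.25 with overlapping groups. Selenoprotein P, Selenop, the main selenium carrier of plasma, was at 3045 and 2964 FPKM in the controls against 2847, 3226 and 2998 FPKM in the knockouts, and was chosen after its values were seen. All knockouts lay below both controls, as for Gpx1, in 1 of these 17 genes, which is about the 6.38% found over all genes. It was Pstk (log2 fold change -0.11), a gene of selenocysteine synthesis, also chosen after its values were seen. The list leaves out the selenoproteins Txnrd2, Gpx3, Gpx4 and Msrb1, which were read in other lists. Of these, Txnrd2 also had all knockouts below both controls (log2 fold change -0.37). The groups overlapped for Gpx3 (0.21), Gpx4 (-0.098) and Msrb1 (-0.084), named after their values were seen.

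**Figure D4:**
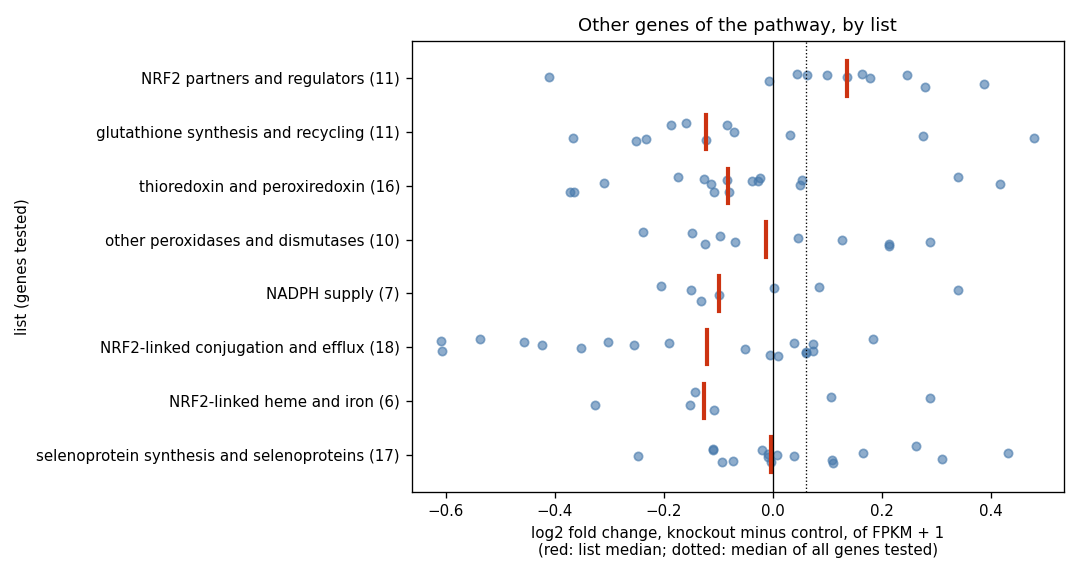
Log2 fold change of FPKM + 1, knockout minus control (horizontal axis), of each tested gene in the 8 pathway lists (points), with red bars for list medians and a dotted line for the median of all genes tested (0.061). Medians lie between -0.13 for heme and iron genes and 0.14 for NRF2 partners, and single genes between -0.61 and 0.48.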

How the data were processed

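Liver RNA of 5 libraries was analysed. The authors deposited FPKM per gene symbol, rounded to 2 decimals, and per the submitters' processing notes they used HISAT2, StringTie and DESeq2 with mm10, with neither roles nor versions given. Both deposited tables held identical values in all 33589 rows, and 220 rows repeated a symbol. No column belonged to another sample (0 found). FPKM are not counts. In short genes with 1 exon, between 32.8% and 39.8% of low values were whole multiples of the best single step (tolerance 0.1), which recovers no read counts and leaves depth unknown.

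Genotype was the only term in limma 3.58.1 (R 4.3.3) fitted to log2(FPKM + 1), with a prior variance that follows the mean level, for 10820 genes whose mean reached 1 FPKM. Tests were two-sided, with Benjamini-Hochberg adjustment over all 10820 genes and a threshold of 0.05. The fit was tested on simulated data, independent normal values drawn with its own variance estimates. Such values meet its assumptions, so they do not show that it suits these libraries. The labels do not say that each library is a separate animal, so p-values cover only the spread among these libraries, which may be technical. The pseudocount of 1 understates changes of genes with low FPKM.

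The 10 genes, the lists and the rule for naming were chosen with earlier results of these data known. The rule names all 10 genes, Heg1 and, per pathway list, the 3 tested genes with the smallest unadjusted p, and the 3 genes nearest to Nqo1. Any other gene is said to be chosen after its values were seen, apart from marker genes and Slc7a11, which was named for its zeros. Gene positions came from GENCODE M21 (GRCm38, also called mm10). Promoters came from RefSeq on GRCm38.p6. Near-identical transcripts were searched with blastn 2.17.0, at 90% identity or more over at least 200 bases.

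Alternatives were other pseudocounts, filters and scalings, a constant prior variance, library weights, the replicate number as a block, and leaving out each library. Those for counts without overlap and for pathway genes were added after seeing the data.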

Additional observations from a re-analysis of the deposited data

How the results depend on the processing

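In all alternatives, 0 of the 10 genes and 0 of the other pathway genes passed the limma test. Over all genes 5 passed with the replicate number as a block (LOC108167922, Moxd1, Mup11, Mup16 and Mup9), and between 0 and 1 when 1 library was left out (Hamp, without control 1). The 2 shared numbers are no stated pairing, and deviations of same-numbered livers correlated at 0.23 and 0.20. The controls deviate from their mean as mirror images. By necessity, control 2 with knockout 1 stood at -0.23 and control 1 with knockout 2 at -0.20. The block changed no other call, and its fold changes repeat those without knockout 3, the only library of its number. The number of the 10 genes without overlap was between 4 and 8 when a library was left out, where fewer libraries make overlap rarer. With a lone control, that liver is assumed to vary like the knockouts. Signs held in every alternative for Keap1, Nqo1, Gclc, Txnrd1, Gpx1, Cat and Sod1. Filters and the constant prior variance cannot change a fold change, so a sign that held there was fixed in advance. Nfe2l2 turned to 0.00090 when rescaled to a common sum, 0.021 when rescaled without Mup genes and 0.0070 with the replicate block. With 1 library left out, values lay between -0.27 and 0.25 for Nfe2l2, -0.20 and 0.12 for Gclm, -0.12 and 0.10 for Srxn1 and -0.088 and 0.66 for Hmox1, with both signs. Srxn1 was 0.018 when rescaled without Mup genes. The cause of these changes was not tested. Nqo1, at a mean of 2.14 FPKM, was not tested with a filter of 5 FPKM, and its low level limits its precision. Depth is unknown, so counting error could not be given.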
